A study of Mus musculus with 16 samples.

Results

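The Wnt pathway genes described here are the secreted Wnt ligands, the frizzled receptors that bind them, the co-receptors, and the secreted or membrane proteins that tune the signal outside the cell. They were taken by gene name from the array annotation: every Wnt, Fzd, Sfrp, Dkk and Rspo gene with a number, together with Frzb, Wif1, Lrp5, Lrp6, Ror1, Ror2, Kremen1, Kremen2, Znrf3, Rnf43 and Porcn. The rule found 52 genes among the 36711 genes with a value, and 44 of the 52 were also in the gene table deposited by the authors, which holds 27036 genes.

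The arrays measured whole colon RNA of 16 conventional RjOrl:SWISS pups at weaning, 1 array per pup. The 8 pups of the CSD group were delivered by hysterectomy at the end of gestation, as a model of C-section, and raised by foster mothers. The 8 pups of the VD group were born vaginally, and their litters were exchanged between mothers. The labels name 2 mothers per delivery mode: mothers 3 and 4 for 4 CSD pups each (4 females and 4 males in all), mother 5 for 5 VD pups (2 females and 3 males) and mother 6 for 3 male VD pups. The labels do not say whether that mother bore or nursed the pups. The paper's array model took the biological mother as a random effect. Litter means the pups of 1 labelled mother throughout. Because a mode was represented by 2 litters, delivery and litter can be told apart only through the spread between litters of 1 mode.

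Wnt ligands are lipid-modified proteins that act over short distances. The acyltransferase Porcn adds the lipid that they need to be secreted and to bind a frizzled. Together with Lrp5 or Lrp6, frizzleds stabilise β-catenin, the signal that keeps stem cells dividing at the base of the colonic crypt, whereas ligands such as Wnt5a, with Ror1 or Ror2, act mainly through routes that do not use β-catenin. R-spondins strengthen the signal by removing the ubiquitin ligases Rnf43 and Znrf3 from the cell surface. Secreted frizzled-related proteins, Wif1 and some of the Dkk proteins restrain the signal. In the intestine much of this supply comes from fibroblasts under the epithelium, as well as from the epithelium itself. In whole colon RNA, fewer cells of a type and less RNA per cell cannot be told apart.

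Values are log2 fluorescence intensities after background correction and quantile normalisation, averaged over the probes of a gene. Differences are given as CSD minus VD on the log2 scale, from a limma model in which delivery and sex were fixed and mother was random. A gene was called at an adjusted p-value under 0.05 (Benjamini-Hochberg over all genes). A probe was taken as expressed where the scanner software marked it well above background. The number of arrays limits the precision.

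Of the 52 genes, 38 were well above background on all 16 arrays, 6 on some arrays and 8 on none. The frizzleds (10 of 10), the co-receptors (4 of 4) and the secreted frizzled-related proteins with Frzb and Wif1 (6 of 6) were above background on every array, but this held for only 9 of the 19 ligands. The 8 genes not well above background on any array were Wnt3, Wnt3a, Wnt7a, Wnt8b, Wnt9b, Dkk1, Dkk4 and Rspo4. Wnt2b, a fibroblast ligand that sustains intestinal stem cells, was above background in 2 CSD and 5 VD pups, and Rspo2 in 2 CSD pups and 0 VD pups. Wnt8a, Wnt10a, Wnt10b and Wnt16 were also above background on some arrays only. No spot of these genes was saturated (0 on every array).

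The genes are represented by 78 probes, and 31 of the 52 have 1 probe. The probes of Fzd5, Ror1 and Wnt11 gave unlike differences, and Fzd6 has a single probe. The opening 30 bases of the 60-base probes of these genes are given here, 5′ to 3′, as the array file writes them. Whether probe position or signal level accounts for the unlike differences was not tested. Positions are those of the array file (mouse build mm9). The exon or untranslated region at each position was not looked up here.
Fzd6 A_52_P217710, chr15:38869107-38869166, plus strand: ggccgagctgtcgattccccttttaagtgt
Fzd5 A_66_P128199, chr1:64779479-64779538, minus strand: aatttcagtggcttccacaagaccttgtac
Fzd5 A_51_P166456, chr1:64781972-64782030, minus strand: acggggacccagtggctggcatctgctatg
Ror1 A_55_P2805819, chr4:100115077-100115136, plus strand: gaccatttatttcaaggactgaaaactgca
Ror1 A_55_P2743250, chr4:100008142-100008201, plus strand: tccaagcgttcattgcattctgcttgctga
Wnt11 A_51_P503131, chr7:106001985-106002045, plus strand: gaaactgataggattaaaaataacctggca
Wnt11 A_55_P2507365, chr7:106003159-106003218, plus strand: tgggggactcggccatccttctctggcttt

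Across delivery modes, 1 of the 52 genes was called. It was Fzd6, a frizzled that fell in CSD pups. Of all 36711 genes, 460 were called (1.25%), so 1 of 52 is near the background. At an unadjusted p-value under 0.05, 11 of the 52 genes passed (21.2%), against 14.5% of all genes. Of these 11, 7 were lower and 4 higher in CSD pups, and 10 were well above background on every array. Over all 52, 27 had a positive and 25 a negative log2 fold change, with a median of 0.01, and the median of all genes was 0.00. In 10 of the 11 the 2 CSD litter means were both above or both below the 2 VD litter means, against 95% of the 5307 genes of the array with an unadjusted p-value under 0.05. Over the 52 genes 19 (36.5%) showed this pattern, against 42% of all genes. No gene of the 52 separated the groups without overlap, as 0.49% of all genes did.

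**Figure D1:**
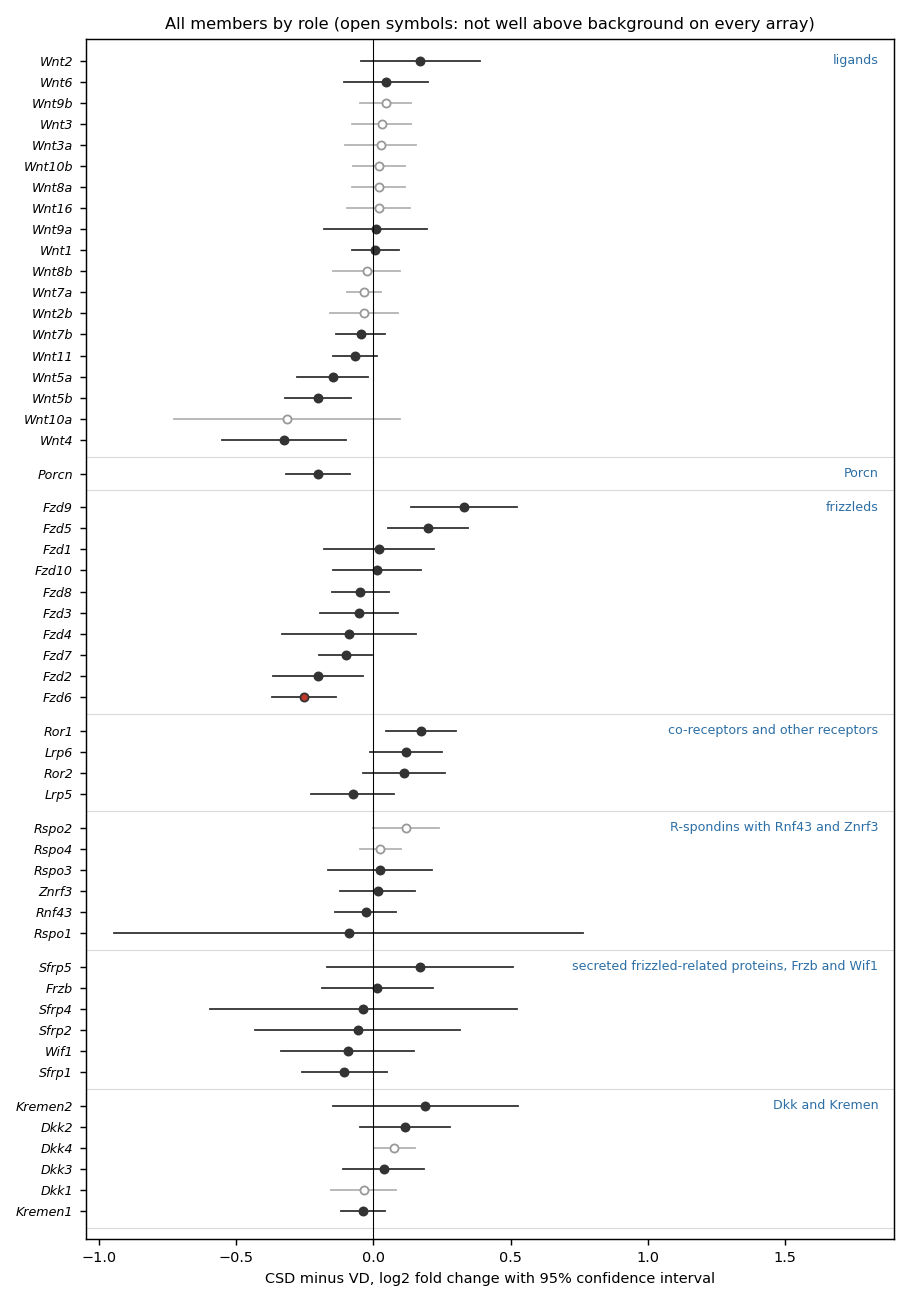
Log2 fold change (CSD minus VD, x axis) of each of the 52 genes with its 95% confidence interval from the limma model, grouped by role. Filled symbols are genes well above background on all 16 arrays, open symbols the others, and the red symbol is Fzd6, at -0.25, the gene called. Rspo1 has the widest interval, from -0.95 to 0.77.

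Among the frizzleds, Fzd6 is known mainly for planar cell polarity, the alignment of cells within a sheet, and can oppose β-catenin signalling. Its log2 intensity in the CSD pups ranged from 8.0 to 8.36 with a median of 8.11, and in the VD pups from 8.28 to 8.50 with a median of 8.38. Of the 8 CSD pups, 7 lay below every VD pup, and the exception was CSD 2, a female of mother 4, at 8.36. The group means were 8.12 ± 0.12 (SD, n = 8) and 8.38 ± 0.08 (SD, n = 8). Fzd6 was 1.19-fold lower in CSD pups (log2 fold change -0.25, SE 0.05, adjusted p = 0.0382, limma), and exact permutation of the 16 pups over the groups (two-sided, without litter or sex) gave p = 0.000622. The means of the litters of mothers 3 and 4 were 8.07 and 8.17, and those of mothers 5 and 6 were 8.38 and 8.38. Within the 4 CSD and 4 VD pups of each slide the log2 fold change was -0.31 and -0.19.

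The call of Fzd6 depended on the processing and on single pups. Its log2 fold change stayed negative in all 39 alternatives (-0.33 to -0.19), but the adjusted p-value passed in 18 and missed in 21 of them (0.0116 to 0.488, limma). It missed on leaving out any of the pups CSD 1, CSD 3, CSD 5, CSD 6, CSD 7, CSD 8, CSD 9, VD 4, VD 10 or VD 11, with adjusted p-values from 0.0548 to 0.086, and in the gene table deposited by the authors (log2 fold change -0.31, adjusted p = 0.0805). Leaving out the litter of mother 3 or of mother 5 gave adjusted p-values of 0.156 and 0.146. With the 4 litter means as samples the adjusted p-value was 0.298, at a log2 fold change of -0.25.

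Of the other frizzleds, Fzd9 and Fzd5 were higher and Fzd2 and Fzd7 lower in CSD pups at an unadjusted p-value under 0.05, and none passed after adjustment. Fzd9 ranged from 6.80 to 7.51 in CSD pups (median 7.10) and from 6.70 to 6.99 in VD pups (median 6.78), with 6 of 8 CSD pups above every VD pup. Its log2 fold change of 0.33 (SE 0.09, adjusted p = 0.0917, limma; permutation p = 0.00202) was the largest of the 52 in size. Fzd5, the receptor on which Paneth cell maturation depends in small intestine, ranged from 7.60 to 8.28 in CSD pups (median 8.04) and from 7.68 to 7.95 in VD pups (median 7.74). Here 7 CSD pups lay above every VD pup, whereas CSD 8 lay below them all (log2 fold change 0.20, SE 0.07, adjusted p = 0.171, limma; permutation p = 0.0118). Without CSD 8, Fzd5 was called and Fzd6 was not. Fzd2, a receptor of Wnt5a, ranged from 9.52 to 10.14 in CSD pups (median 9.85) and from 9.89 to 10.22 in VD pups (median 10.01), with a log2 fold change of -0.20 (SE 0.08, adjusted p = 0.22, limma; permutation p = 0.0376), and 4 CSD pups lay below every VD pup. Fzd7, the main frizzled of intestinal stem cells, ranged from 8.81 to 9.19 in CSD pups (median 8.96) and from 8.95 to 9.14 in VD pups (median 9.04), and its groups overlapped. Its log2 fold change was -0.10 (SE 0.05, adjusted p = 0.309, limma), and the permutation test, which leaves sex out, gave p = 0.267. Fzd1, Fzd3, Fzd4, Fzd8 and Fzd10 had log2 fold changes between -0.09 and 0.02.

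Of the ligands, 3 had an unadjusted p-value under 0.05, and all 3 were lower in CSD pups, though none passed after adjustment. Wnt5b, a ligand of the β-catenin-independent routes, ranged from 9.21 to 9.55 in CSD pups (median 9.32) and from 9.40 to 9.75 in VD pups (median 9.61). Of the CSD pups, 5 lay below every VD pup (log2 fold change -0.20, SE 0.06, adjusted p = 0.0921, limma; permutation p = 0.00295). Its 2 probes gave differences of group means of -0.22 and -0.24, with p = 0.00357 and p = 0.00373 by exact permutation. Wnt4, which is expressed by fibroblasts and muscle of the gut wall, ranged from 10.36 to 10.93 in CSD pups (median 10.63) and from 10.49 to 11.29 in VD pups (median 11.03). The groups overlapped, with VD 4 lowest of the VD pups at 10.49 and the next, VD 10, at 10.81. The log2 fold change of Wnt4 was -0.33 (SE 0.11, adjusted p = 0.146, limma; permutation p = 0.00808). Wnt5a, the ligand of fibroblasts near the crypt mouth, ranged from 8.14 to 8.59 in CSD pups (median 8.40) and from 8.39 to 8.70 in VD pups (median 8.56), with a log2 fold change of -0.15 (SE 0.06, adjusted p = 0.258, limma; permutation p = 0.014). Its 2 probes above background on every array differed by -0.25 and -0.16, and the third, above background in 1 CSD and 3 VD pups, by -0.09.

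The remaining ligands above background on every array did not pass the test. Wnt6 measured 7.75 ± 0.16 and 7.74 ± 0.14 (SD, n = 8 each) in CSD and VD pups. Wnt1 gave 9.20 in both groups, with a 95% confidence interval of the difference from -0.08 to 0.09. Wnt2b, not above background in every pup, gave 6.43 ± 0.12 and 6.45 ± 0.12 (SD, n = 8 each). Wnt3, the ligand of Paneth cells in small intestine, and Wnt9b, known from the ureteric bud of the kidney, were not well above background on any array, so that their fitted differences compare signals at background.

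Porcn was next to Fzd6 in the order of p-values. It ranged from 9.50 to 9.83 in CSD pups (median 9.63) and from 9.71 to 10.02 in VD pups (median 9.78). Of the 8 CSD pups, 7 lay below every VD pup, and CSD 5 lay among them. The log2 fold change was -0.20 (SE 0.06, adjusted p = 0.0896, limma; permutation p = 0.00373), with -0.22 and -0.18 within the 2 slides.

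**Figure D2:**
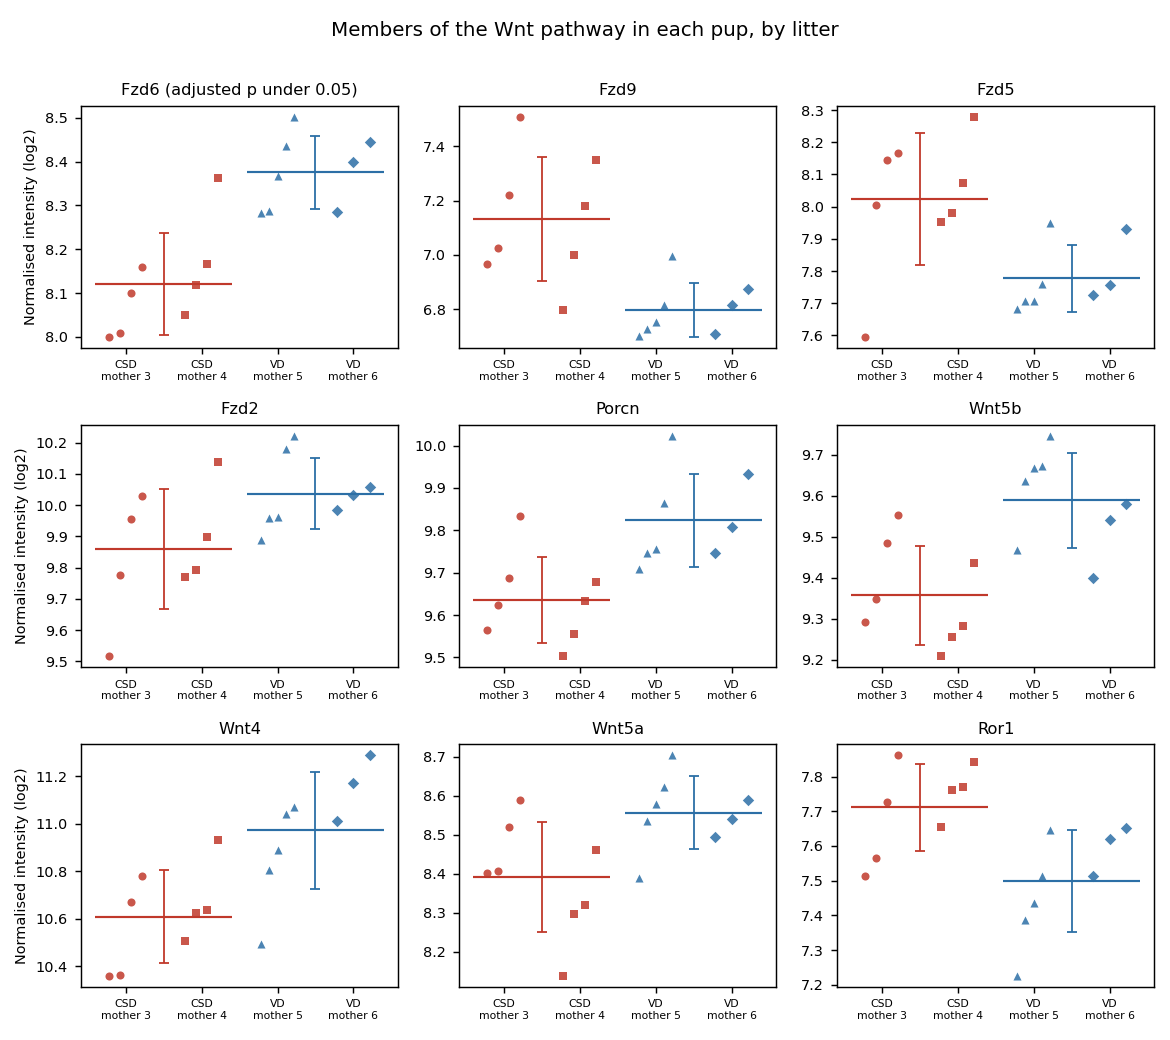
Normalised log2 intensity (y axis) of 9 genes in each pup, by litter (x axis), CSD in red and VD in blue; horizontal lines are group means and bars 1 SD (n = 8). Fzd6, the gene called, shows CSD 2 at 8.36 among the VD pups, and Fzd5 shows CSD 8 at 7.60 below them. The y axes differ between panels and do not start at 0.

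Among the co-receptors and other receptors, Ror1, a receptor for Wnt5a, had an unadjusted p-value under 0.05. It ranged from 7.51 to 7.86 in CSD pups (median 7.74) and from 7.23 to 7.65 in VD pups (median 7.51), and 6 CSD pups lay above every VD pup. Its log2 fold change was 0.17 (SE 0.06, adjusted p = 0.172, limma; permutation p = 0.00684). Its relative Ror2 measured 10.13 ± 0.16 and 10.01 ± 0.10 (SD, n = 8 each), and the 95% confidence interval of its difference ran from -0.04 to 0.26. Lrp6 measured 9.84 ± 0.19 and 9.66 ± 0.16 (log2 fold change 0.12, adjusted p = 0.4, limma), and Lrp5 9.20 ± 0.17 and 9.26 ± 0.10 (log2 fold change -0.08, adjusted p = 0.691, limma).

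The probes of a gene did not always move alike. Of the 14 genes with 2 or more probes above background on every array, 5 had probes of opposite sign (Wnt11, Znrf3, Dkk3, Kremen1 and Rspo3). On leaving out each of the 16 pups in turn, the signs stayed opposite in 15 fits for Wnt11, Znrf3 and Rspo3, in 11 for Dkk3 and in 9 for Kremen1. The difference between probes reached p-values under 0.05 in 3 of the 14, by exact permutation, and 0 of 14 after Benjamini-Hochberg adjustment. For Fzd5, the probe whose sequence begins aatttcag measured 8.75 ± 0.42 in CSD and 8.27 ± 0.29 in VD pups (SD, n = 8), a difference of 0.48, whereas the other differed by 0.01 (7.30 ± 0.05 against 7.28 ± 0.17), and the gap between the 2 differences gave p = 0.0485 (exact permutation, adjusted p = 0.226). On leaving out each pup in turn, the p-value of this gap was under 0.05 in 3 of 16 fits and otherwise up to 0.0968 (exact permutation), and without VD 7 the second probe differed by 0.07. For Wnt11, a ligand of the β-catenin-independent routes, the probe A_51_P503131 was lower by 0.21 in CSD pups (6.84 ± 0.10 against 7.05 ± 0.13) and A_55_P2507365 differed by 0.03 (6.74 ± 0.16 against 6.71 ± 0.07, SD, n = 8), and the gap gave p = 0.0146 (exact permutation, adjusted p = 0.163). Without CSD 8 the second probe differed by -0.03, so that both Wnt11 probes were lower in CSD pups, and the gap gave p = 0.0287 (exact permutation). For Ror1, the probe A_55_P2805819 was 0.41 higher in CSD pups (9.19 ± 0.21 against 8.77 ± 0.27; p = 0.00295 by exact permutation, n = 8 each). The other Ror1 probe was above background in 1 of 16 pups, so the mean over both probes understates the difference of the measured one. The value of Fzd6 rests on a single probe.

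**Figure D3:**
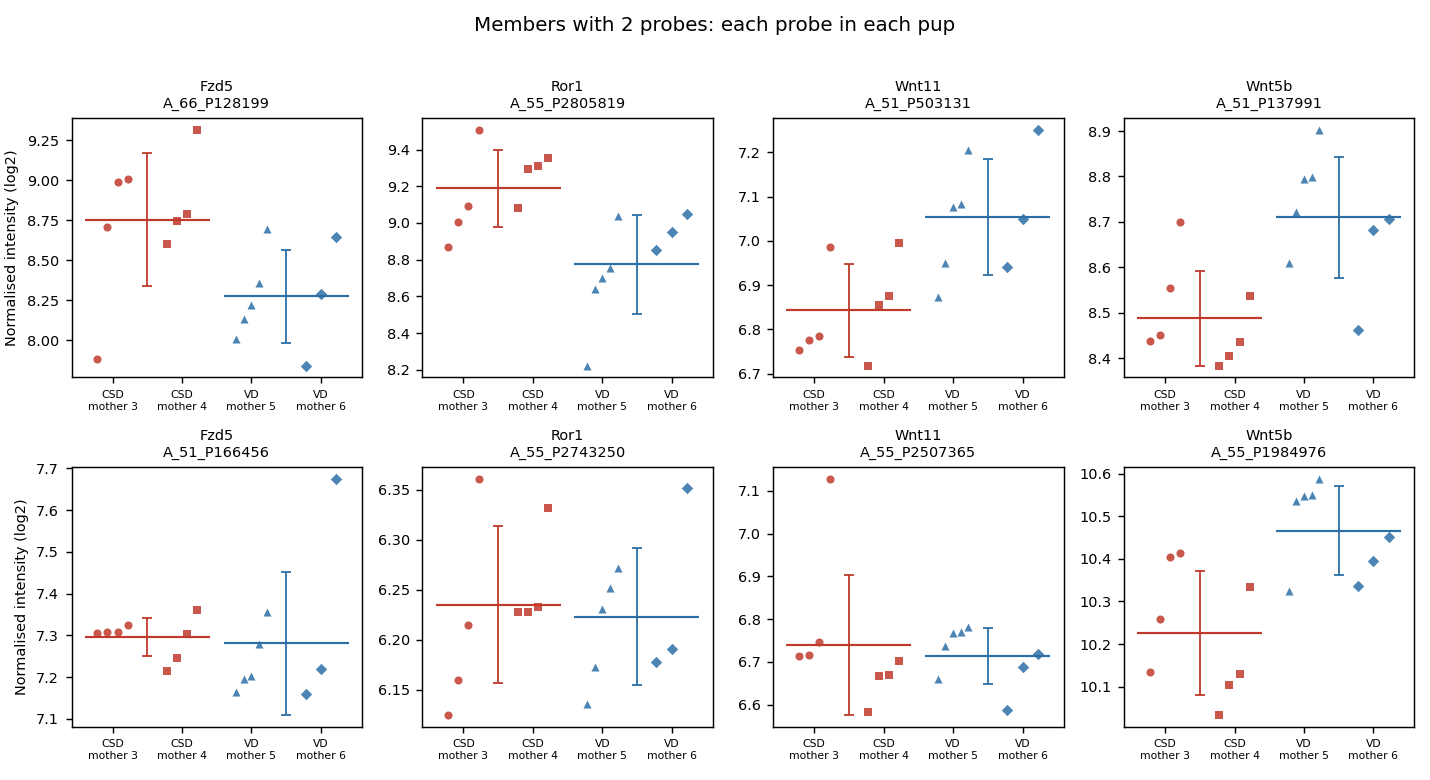
Log2 intensity (y axis) in each pup, by litter (x axis), of both probes of Fzd5, Ror1, Wnt11 and Wnt5b, CSD in red and VD in blue; lines are group means and bars 1 SD (n = 8). The upper Fzd5 probe differed by 0.48 between groups and the lower by 0.01, while both Wnt5b probes were lower in CSD pups, by 0.22 and 0.24. The y axes differ between panels.

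No R-spondin, nor Rnf43 or Znrf3, was called by delivery mode. Rspo3, the main R-spondin of intestinal stroma, measured 8.27 ± 0.15 and 8.27 ± 0.21 (SD, n = 8 each) in CSD and VD pups. Rnf43 measured 9.31 ± 0.11 and 9.32 ± 0.08, and Znrf3 7.94 ± 0.15 and 7.91 ± 0.10 (SD, n = 8 each). The 95% confidence intervals of the difference ran from -0.17 to 0.21 for Rspo3, from -0.14 to 0.08 for Rnf43 and from -0.12 to 0.15 for Znrf3. Among those above background on every array, the unadjusted p-value was smallest for Rnf43 (log2 fold change -0.03, SE 0.05, adjusted p = 0.859, limma; permutation p = 0.716).

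Rspo1 was the most variable gene of the 52, with an SD of 0.79 over the 16 pups, against a median of 0.14 over the 52. It ranged from 7.13 to 9.85 in CSD pups and from 7.23 to 9.27 in VD pups, and the groups overlapped over nearly the whole range. The group means were 8.56 ± 0.96 and 8.58 ± 0.63 (SD, n = 8; log2 fold change -0.09, SE 0.40, adjusted p = 0.947, limma). Its level went with the markers of mesothelium, the cell layer that covers the outer surface of the gut. Against the mean of the 4 markers Msln, Upk3b, Wt1 and Lrrn4, Rspo1 gave Pearson r = 0.969 and Spearman rho = 0.985 over the 16 pups. Both p-values were 1e-05, the smallest that 100000 permutations can give (adjusted p = 0.00259 for both, over 259 pairs of 37 genes and 7 marker lists). Without the 2 pups farthest from the median of the markers r was 0.96. Within CSD pups r was 0.98 and within VD pups 0.99, and within the 2 slides 0.96 and 0.99. The correlations with Msln, Upk3b, Wt1 and Lrrn4 alone were 0.95, 0.94, 0.94 and 0.87. This was the 1 pair of 259 that passed. The next gene in order for these markers was Fzd9, with r = 0.65 (permutation p = 0.0058, adjusted p = 0.447, rho = 0.48), or 0.43 without the 2 farthest pups, 0.95 within CSD pups and 0.26 within VD pups. The same markers gave r = -0.26 with Rspo3 (permutation p = 0.327, adjusted p = 0.669, n = 16). Of the mesothelial markers 0 of 4 were called between groups (0 with an unadjusted p-value under 0.05, limma). Msln and Wt1 were above background on all 16 arrays, Upk3b on 11 and Lrrn4 on 8.

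**Figure D4:**
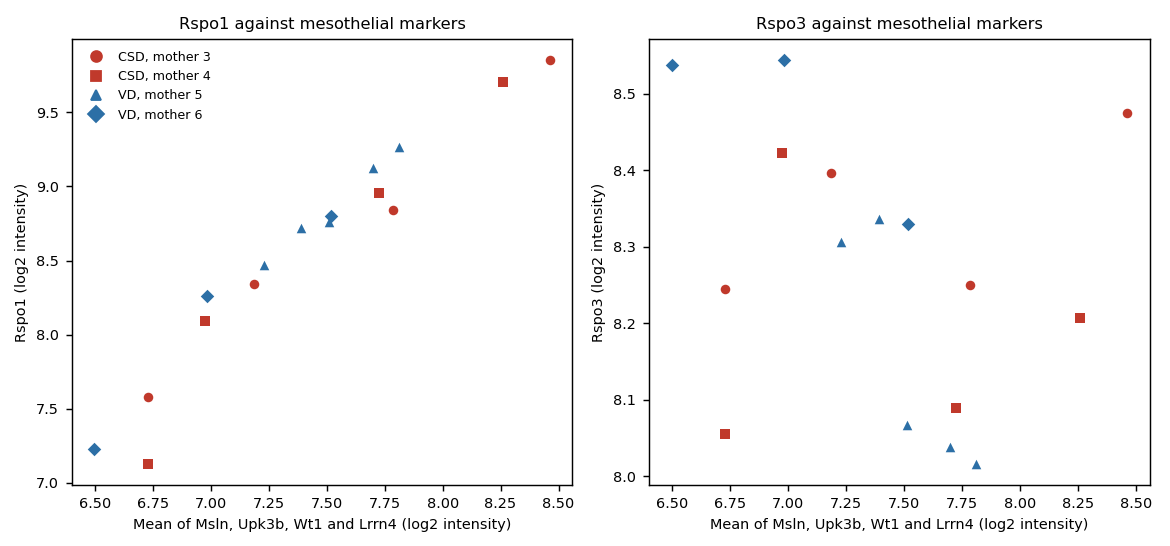
Log2 intensity of Rspo1 (left, y axis) and Rspo3 (right, y axis) against the mean log2 intensity of 4 mesothelial markers (x axis), 1 point per pup, CSD in red and VD in blue, with a shape for each mother. Rspo1 rises along a line from 7.13 to 9.85 (r = 0.97), whereas Rspo3 does not (r = -0.26).

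Among the Sfrp, Frzb, Wif1, Dkk and Kremen genes above background on every array, none had an unadjusted p-value under 0.05. Sfrp1 measured 9.02 ± 0.16 and 9.12 ± 0.11 in CSD and VD pups (log2 fold change -0.11, SE 0.07, adjusted p = 0.551, limma; permutation p = 0.179). Frzb measured 8.78 ± 0.23 and 8.72 ± 0.19, and Wif1, which binds Wnt ligands directly, 8.31 ± 0.31 and 8.35 ± 0.14. Dkk2, which blocks Lrp5 and Lrp6, ranged from 6.62 to 7.07 in CSD pups (median 6.90, 1 value, of CSD 8, left out as an outlier spot) and from 6.54 to 6.87 in VD pups (median 6.72), with a log2 fold change of 0.11 (SE 0.08, adjusted p = 0.544, limma; permutation p = 0.0704). Dkk3 measured 10.09 ± 0.13 and 10.03 ± 0.15, and Kremen1, a receptor for Dkk proteins, 7.87 ± 0.05 and 7.91 ± 0.08. The 28 genes above background on every array with an unadjusted p-value of 0.05 or more had log2 fold changes between -0.11 and 0.19.

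Between females and males, 0 of the 52 genes were called, against 22 of all genes (0.0599%), and 8 of the 52 (15.4%) had an unadjusted p-value under 0.05 in limma, against 6.45% of all genes. Sex was estimated from 4 CSD and 2 VD females, the latter of 1 litter. Lrp6 had the smallest p-value, with a female minus male log2 difference of 0.26 (SE 0.06, adjusted p = 0.323, limma), and ranged from 9.81 to 10.18 in CSD females and from 9.61 to 9.79 in CSD males, without overlap, but from 9.75 to 9.92 in VD females and from 9.46 to 9.82 in VD males, with overlap. Wnt2 was lower in females, at 8.35 ± 0.13 against 8.68 ± 0.29 in CSD pups (n = 4 each), with an adjusted p-value of 0.527 (limma). The difference by delivery mode varied with sex for 0 of the 52 genes, against 1 of all genes (0.00272%), and 0 of the 52 had an unadjusted p-value under 0.05 for this interaction, against 4.72% of all genes. Without CSD 3, 3 of the 52 passed unadjusted and 0 were called. More of all genes were called without VD 4 or VD 5, but those fits leave 1 VD female and cannot decide an interaction.

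Litters of the same delivery mode were compared with each other. Birth and nursing mother cannot be told apart in these differences. Between mothers 3 and 4, 0 of the 52 genes were called, against 0.0872% of all genes, and 6 (11.5%) had an unadjusted p-value under 0.05, against 7.68% of all genes. Leaving out 1 pup moved the 6 to between 3 (without CSD 1 or CSD 9) and 9 (without CSD 5). Between mothers 5 and 6, 1 of the 52 was called, against 0.874% of all genes, and 9 (17.3%) had an unadjusted p-value under 0.05, against 11.5% of all genes (limma). Leaving out 1 pup moved the 9 to between 4 (without VD 6) and 11 (without CSD 5). The count of all genes called, 321, moved to between 77 (without VD 9) and 370 (without CSD 7). The gene called among the 52 was Wnt10a, a ligand best known from skin and teeth. In the 3 pups of mother 6 it ranged from 6.78 to 7.66 and was above background in all 3, and in the 5 pups of mother 5 it ranged from 6.09 to 6.61 and was above background in 2. The log2 difference of mother 5 minus mother 6 was -0.88 (adjusted p = 0.0347, limma), but Wnt10a lost the call on leaving out VD 5, VD 7, VD 8, VD 9, VD 10 or VD 11. With only 2 of the 5 pups of mother 5 above background, the size of this difference is not exact. In CSD pups Wnt10a ranged from 6.12 to 6.63. Sfrp2, a stromal modulator, ranged from 9.89 to 10.32 in the litter of mother 3 and from 10.73 to 10.92 in that of mother 4, without overlap (log2 difference -0.66, adjusted p = 0.27, limma). Sfrp4 was higher in the litter of mother 3, at 8.31 ± 0.60, than in that of mother 4, at 7.46 ± 0.51 (SD, n = 4 each; adjusted p = 0.461, limma). Some genes described by delivery mode also differed within a mode. Mother 5 minus mother 6 gave -0.23 for Ror1 and 0.19 for Wnt5b (adjusted p = 0.124 and 0.187, limma), against 0.17 and -0.20 by delivery mode. Mother 3 minus mother 4 gave 0.12 for Wnt5b, 0.18 for Wnt5a and -0.13 for Fzd7 (adjusted p = 0.626, 0.566 and 0.612, limma).

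**Figure D5:**
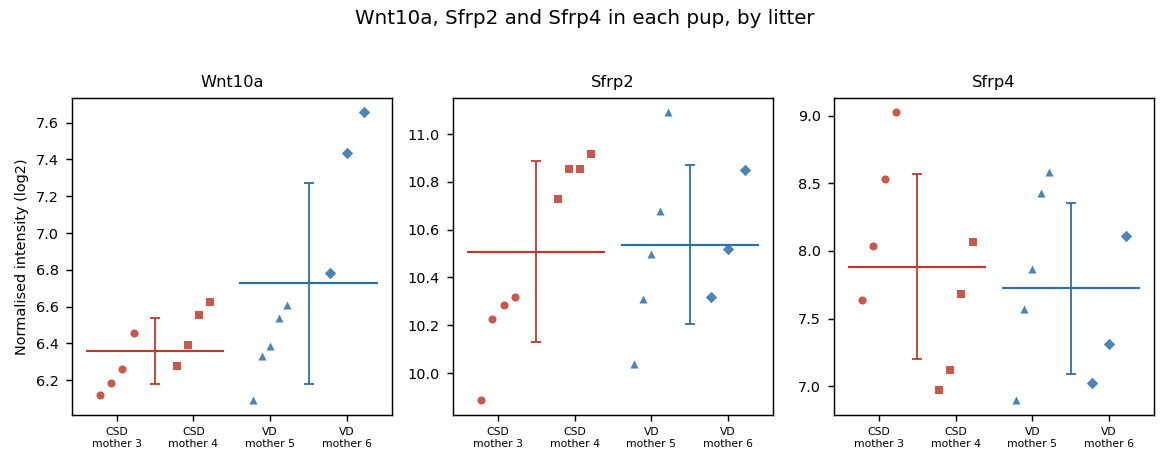
Normalised log2 intensity (y axis) of Wnt10a, Sfrp2 and Sfrp4 in each pup, by litter (x axis), CSD in red and VD in blue; lines are group means and bars 1 SD (n = 8). Wnt10a reached 7.66 in the litter of mother 6, and Sfrp2 in the litter of mother 3 lay below that of mother 4. The y axes differ between panels.

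The pathway beyond these genes was followed in 112 further genes of 4 lists, of which 4 (3.57%, against 1.25% of all genes) were called between CSD and VD pups, 2 higher and 2 lower. At an unadjusted p-value under 0.05, 23 passed (20.5%, against 14.5% of all genes), and the median log2 fold change was 0.02, with 0.00 for all genes. Among R-spondin receptors, Wnt carriers and extracellular regulators, 0 of 18 were called, and 1 passed unadjusted, Tspan12 (log2 fold change 0.16, adjusted p = 0.291, limma). Wls, which carries Wnt ligands to the cell surface, measured 11.71 ± 0.17 and 11.55 ± 0.13 (SD, n = 8; adjusted p = 0.441, limma).

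Inside the cell, 3 of the 38 genes of the β-catenin route were called, 1 higher and 2 lower in CSD pups. Tle1, a corepressor that binds Tcf factors, rose: it ranged from 11.14 to 11.48 in CSD pups (median 11.26) and from 10.84 to 11.09 in VD pups (median 10.95), with no overlap (log2 fold change 0.33, SE 0.06, adjusted p = 0.0187, limma). The kinase Gsk3a, of the pair that marks β-catenin for destruction, fell by 0.17 on the log2 scale (SE 0.03, adjusted p = 0.0195, limma), from 10.85 ± 0.05 in VD to 10.68 ± 0.06 in CSD pups (SD, n = 8). Bcl9l, a coactivator of β-catenin, fell by 0.14 on the log2 scale (SE 0.03, adjusted p = 0.0407, limma), from 9.11 ± 0.04 to 8.98 ± 0.05 (SD, n = 8). In each of the 3 genes the groups did not overlap, as in 0.49% of all genes. The 3 had been picked by their adjusted p-values on the same intensities. Among 22 target and feedback genes, 1 was called: the proto-oncogene Myc, which rose by 0.33 (SE 0.04, adjusted p = 0.00254, limma), from 8.21 ± 0.08 in VD to 8.54 ± 0.07 in CSD pups (SD, n = 8). These 4 calls depended on the samples, and those of Tle1, Gsk3a and Bcl9l also on the processing. Myc, Tle1, Gsk3a and Bcl9l kept the sign of the log2 fold change in 39 of 39 alternatives and were called in 33, 30, 28 and 10 of them. With normexp offset 0 only Myc was called. With offset 16, or scanner-corrected intensities minus the 75th percentile, only Myc and Tle1 were called. Bcl9l also lost the call in the deposited gene table (adjusted p = 0.0502, limma). None of the 4 was called with litter means as samples, in males alone, on either slide alone, without the litter of mother 5 or with the pup number as a block, and without VD 4 only Myc was called. Axin2, the feedback gene often used to read β-catenin activity, measured 8.0 ± 0.14 and 7.95 ± 0.19 (adjusted p = 0.888, limma), and the stem cell receptor Lgr5 measured 8.19 ± 0.22 and 8.14 ± 0.21 (adjusted p = 0.986, limma). Of 38 genes of the planar polarity and calcium routes, 0 were called and 9 passed unadjusted, 7 higher and 2 lower, with the smallest p-value for Nfatc1 (log2 fold change 0.32, adjusted p = 0.0671, limma).

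Markers of cell types were read beside these results. The exact permutation tests of their sums and means took no account of litter or sex. For comparison, 17725 of the 36711 genes with a value were lower in CSD pups and 18986 were higher. The share of all genes passing unadjusted was 14.5%, and after adjustment it was 1.25%. Leukocyte markers were lower in CSD pups in 7 of 8 genes (0 called, 3 with an unadjusted p-value under 0.05). The log2 of their summed intensities ranged from 12.43 to 12.83 in CSD pups (median 12.56) and from 12.66 to 13.12 in VD pups (median 12.82), with p = 0.00901 in the exact permutation test, and Csf1r gave the highest signal. Endothelial markers were lower in 6 of 6 genes (0 called, 2 with an unadjusted p-value under 0.05), and the log2 of their sum, led by Cldn5, ranged from 11.14 to 11.68 in CSD pups (median 11.42) and from 11.48 to 11.89 in VD pups (median 11.66), with p = 0.00435 (exact permutation). Markers of subepithelial fibroblasts were lower in 11 of 13 genes and of smooth muscle in 7 of 8, with 0 called in both (1 and 0 with an unadjusted p-value under 0.05), and their sums gave p = 0.0707 and p = 0.135 (exact permutation). Epithelial markers were higher in 8 of 10 genes (0 called, 2 with an unadjusted p-value under 0.05), and their sum, led by Krt8, gave p = 0.937, whereas the mean of their log2 intensities was 14.63 ± 0.16 in CSD and 14.47 ± 0.12 in VD pups (SD, n = 8) and gave p = 0.0418 (exact permutation). Enteric neuron and glia markers were higher in 7 of 10 genes (0 called, 0 with an unadjusted p-value under 0.05), whereas the log2 of their sum was 11.79 ± 0.13 in CSD and 11.84 ± 0.11 in VD pups (SD, n = 8; p = 0.438, exact permutation) and the mean of their log2 intensities was 8.27 ± 0.11 and 8.29 ± 0.08 (p = 0.667, exact permutation). All 10 colon markers were on the array and 9 were above background on every array, whereas of the 10 small intestine markers 6 were above background on every array and 3 on none.

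The 10 genes with an unadjusted p-value under 0.05 between delivery modes and above background on every array were set against the mean of each of 7 cell type lists over the 16 pups. Of these 70 pairs, 8 had an unadjusted permutation p-value under 0.05 for Pearson r, and 0 passed after adjustment over all 259 pairs (lowest adjusted p = 0.447). The list with the largest r in size was endothelium for Fzd6 (r = 0.49), Porcn (0.55), Fzd2 (0.53) and Fzd5 (-0.43), smooth muscle for Wnt5b (0.52) and Wnt5a (0.515), epithelium for Wnt4 (-0.52) and Fzd7 (-0.32), leukocytes for Ror1 (-0.62) and mesothelium for Fzd9 (0.65). The values of Spearman's rho were 0.4, 0.57, 0.385, -0.45, 0.57, 0.56, -0.58, -0.25, -0.63 and 0.48 in the same order. Within CSD and within VD pups r was 0.18 and -0.66 for Fzd6, 0.29 and -0.02 for Porcn, 0.84 and -0.096 for Wnt5b, -0.15 and -0.45 for Wnt4, and -0.23 and -0.47 for Ror1. Without the 2 pups farthest from the median of the marker mean, r was 0.38 for Fzd6, 0.54 for Porcn, 0.65 for Wnt5b, -0.63 for Wnt4 and -0.48 for Ror1, but 0.18 for Fzd2. Within the 2 slides it was 0.69 and 0.04 for Fzd6, 0.55 and 0.44 for Porcn, 0.65 and 0.3 for Wnt5b, -0.26 and -0.83 for Wnt4, and -0.46 and -0.765 for Ror1. Other lists came close for some genes. For Fzd9, smooth muscle gave r = -0.62 and rho = -0.58 (adjusted p = 0.447 for r, permutation). This r was -0.63 without the 2 farthest pups, and -0.52 and -0.76 within CSD and VD pups. For Ror1, smooth muscle gave r = -0.48 and rho = -0.66 (adjusted p = 0.492 for r, permutation). Beyond these values, the part of cell types in the differences by delivery mode was not tested.

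Promoters of 33 of the 52 genes (37 promoters, 300 bases each) were searched for CTTTGAT, a sequence bound by Tcf and Lef factors, on both strands (RefSeq, GRCm38.p6). It was found in 2 of the 37 (5.41%), those of Wnt5b and Wnt11, and in 3.73% of all 32851 promoters. The sister sequence CTTTGAA was found in 1 of the 37 (2.7%), that of Dkk1, and in 5.14% of all. The 2 matches of CTTTGAT are shown in capitals, with 8 bases on either side, on the strand of the gene. Whether they bear on the differences by delivery mode was not tested.
Wnt5b, in chr6:119449337-119449636, minus strand: aagtctctCTTTGATctgctccc
Wnt11, in chr7:98834862-98835161, plus strand: gtgggcggATCAAAGcgacggtc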

How the data were processed

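Colon RNA of 16 pups was hybridised to single-colour Agilent arrays, on 2 slides that held 4 pups of either group. The authors extracted the deposited intensity values, with background values and outlier and background marks, with the scanner software. They also deposited a gene table of normalised log2 values (limma 3.38 per the labels), which served as an alternative. Here intensities were background-corrected (normexp, offset 50), control and outlier spots were dropped, and log2 values were quantile normalised (limma 3.58.1, R 4.3.3). Of 56605 probes, 56366 above the 5% quantile in at least 4 arrays were kept, and their mean per gene was used. Delivery and sex were fixed terms and the labelled mother a random term (duplicateCorrelation, consensus correlation 0.0152), with Benjamini-Hochberg adjustment over 36711 genes. Single genes were also compared by an exact two-sided permutation test over 12870 assignments of pups. Scripts were tested on simulated data.

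The genes, lists and tests were chosen with earlier results of these data known. Genes given in full were those called and, in each role, those with an unadjusted p-value under 0.05 or else the smallest p-value, if well above background on every array of a group. Others were named for known roles in intestine. Arrays correlated between 0.988 and 0.997 over genes, and no pair was identical. The pups numbered alike in both groups (5 to 9) shared only the number. Background correction, normalisation, filters, model terms, slides, single pups and litters were varied.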

Additional observations from a re-analysis of the deposited data

Results flagged for a closer look

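Single pups stood apart from the other 7 of their group in 7 of 103 sets of 8 values (Dixon's test at its 95% limit, which chance exceeds in about 1 of 20 sets). CSD 2 was high for Fzd6 at 8.36, with the next CSD pup at 8.17. VD 8 was low for Lrp5 at 9.04 (next 9.24) and for Wif1 at 8.06 (next 8.30). VD 6 was high for Fzd10 at 7.01 (next 6.67), and CSD 5 was high for Frzb at 9.30 (next 8.84). CSD 9 was high for Rspo2 at 6.48, and CSD 1 for Wnt9b at 6.35, both genes at or near background.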

How the results depend on the processing

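The signs of the 13 genes given in full were those given in the report in 505 of 507 pairs of gene and alternative. The exceptions were Rnf43 with slide 1 alone and without CSD 6. Sizes varied more: the log2 fold change ranged from 0.26 to 0.63 for Fzd9, 0.08 to 0.38 for Fzd5, 0.03 to 0.36 for Ror1, -0.28 to -0.07 for Wnt5b, -0.24 to -0.13 for Porcn and Fzd2 alike, -0.55 to -0.24 for Wnt4, -0.32 to -0.07 for Wnt5a, -0.16 to -0.04 for Fzd7, -0.18 to -0.03 for Sfrp1 and 0.04 to 0.83 for Dkk2. Fzd5, Ror1 and Wnt5b were lowest in size without the litter of mother 5, and Dkk2 was highest in the deposited table. Of the 39 alternatives, the number of the 52 genes called between CSD and VD pups was 0 with normexp offset 0 or 16, with scanner-corrected intensities after quantile normalisation, in the deposited gene table, with litter means as samples, in males alone, on slide 1 or slide 2 alone, and without the litter of mother 3 or mother 5. It was 3 without sex in the model, and 4 without the litter of mother 6 or at an adjusted p under 0.1. Leaving out each pup in turn gave 0 to 2, the 2 being Fzd6 and Wnt5b without VD 6. With the pup number as a replicate block (10 pups of 5 numbers) it was 0. The check that the numbers pair pups gave correlations from -0.05 to 0.21. For all genes the count of 460 became 102 with offset 0, 243 with offset 16, 177 and 164 with scanner-corrected intensities (quantile and 75th percentile), 170 in the deposited table, 992 without sex, 212, 138, 189 and 2265 without the litters of mothers 3, 4, 5 and 6, 1126 at an adjusted p under 0.1, 11 on slide 1 alone, and 0 with litter means, in males, on slide 2 alone or under the block; leaving out each pup gave 145 to 617. Of the genes between mothers 5 and 6, 0 were called with either scanner-corrected setting or with the filter on probes above background, and 0 to 1 on leaving out each pup. The count of 4 further pathway genes became 2 with offset 16 or the 75th percentile, and 1 to 4 on leaving out each pup, the lowest without VD 4. In alternatives chosen after seeing the data it became 1 with offset 0 or without the litter of mother 4 (Myc in both) or of mother 5 (Dvl2, none of the 4), 8 without the litter of mother 6, and 0 with litter means, in males, on slide 1 or slide 2 alone or with the replicate block. The probe differences with single pups left out were also chosen after seeing the data. The cause of these changes was not tested. The number of litters, 2 per delivery mode, and signal near background for 14 of the 52 genes limit what could be seen.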
